A study of Mus musculus with 12 samples.

Results

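The 8 genes described here are those for the aquaporins Aqp1, Aqp2, Aqp3, Aqp4, Aqp6, Aqp7 and Aqp11 and for the vasopressin V2 receptor, Avpr2. They were taken by symbol from a table of raw counts with 23420 genes, and all 8 passed the filter on low counts, which left 11664 genes to test. The counts come from 12 kidneys of adult male C57BL/6J mice, 4 in each of 3 groups. The 4 control kidneys were removed at nephrectomy, although their labels carry the same 20 min of ischemia as the others. The other 8 kidneys were clamped at the renal pedicle for 20 min and taken after 24 h, with the mice either awake or under ketamine and xylazine. The labels disagree on which were which. Ischemia set A is anaesthetised by its titles and conscious by its group field, ischemia set B is the reverse, and no direction is given here to anaesthesia. Per the methods of the study, the clamp was placed beforehand by surgery under ketamine and xylazine, followed by buprenorphine. The ischemic kidneys may therefore differ from the controls through this surgery as well as through ischemia. The methods also state that the awake mice were sedated briefly with isoflurane to close and open the clamp. The median part of each kidney went to histology, so that the RNA came from the remaining parts.

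Water crosses tubule cells through aquaporins, which are tetramers with a pore in each subunit. Aqp1 lets water follow reabsorbed salt in the proximal tubule and the thin descending limb, and it also lines the descending vasa recta. In the principal cells of the collecting duct, vasopressin binds Avpr2 on the basolateral side, cyclic AMP rises, and vesicles with Aqp2 move to the apical membrane, while Aqp3 and Aqp4 form the basolateral exit. Aqp6 sits in vesicles of intercalated cells, Aqp7 carries glycerol and water in the straight part of the proximal tubule, and Aqp11 lies in the endoplasmic reticulum of proximal tubule cells.

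The total counts lay between 15367342 and 44793350 per kidney, so that 3 counts were worth between 0.0661 and 0.190 counts per 1000000 of the TMM-scaled library (CPM). This covers counting error only, and the replicates of a group differed far more than counting alone would give (chi-square over its degrees of freedom 48.9 or more for all pairs). Replicate 4 of set B stood apart from all others on the second principal component, at 149 against -41.4 to 25.6. Zeros were common in the low range. Among the 2664 genes with a mean of 20 to 100 counts, 23.3% of the values were 0 and 3.47% were between 1 and 7. A low count in this table cannot be read as absence, since B2m, a gene of nearly every cell that was picked after its values were seen, was listed at 0 in 8 kidneys and reached 43 counts at most. The p-values set the difference between groups against the spread between these kidneys.

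The genes lie apart in the genome, with the exception of a pair on chromosome 15 and a pair on chromosome 4. In the mm10 build (GRCm38, GENCODE M21), Aqp1 spans chr6:55336432-55348555 on the plus strand with 4 exons and Aqp11 spans chr7:97724006-97738289 on the minus strand with 3 exons. Aqp2 (chr15:99579055-99584547) and Aqp6 (chr15:99601400-99605477) lie on the plus strand with Aqp5 between them, and Aqp3 (chr4:41092722-41098183) and Aqp7 (chr4:41033074-41048139) lie close together on the minus strand. Aqp4, on the minus strand, overlaps an antisense gene. Avpr2 (chrX:73892102-73895502, plus strand) overlaps L1cam and Arhgap4 on the other strand. The library kit keeps the strand but the strand setting of the counting is not given in the sources used here, so reads of these overlaps cannot be assigned with certainty.

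The promoters of the 3 most abundant aquaporins are shown because Aqp1 fell after ischemia and Aqp2 and Aqp3 did not pass the test. Each line gives the 250 bases before the transcript start, 5′ to 3′ on the strand of the gene, from RefSeq (GRCm38.p6), for Aqp1 at chr6:55336049-55336298 (plus), Aqp2 at chr15:99578806-99579055 (plus) and Aqp3 at chr4:41098184-41098433 (minus). Capitals mark the motifs searched on both strands, namely the CRE half-site TGACG that cyclic AMP response factors can bind, the GATA core GATAA and the TATA box TATAA, which do not overlap each other here.
Aqp1: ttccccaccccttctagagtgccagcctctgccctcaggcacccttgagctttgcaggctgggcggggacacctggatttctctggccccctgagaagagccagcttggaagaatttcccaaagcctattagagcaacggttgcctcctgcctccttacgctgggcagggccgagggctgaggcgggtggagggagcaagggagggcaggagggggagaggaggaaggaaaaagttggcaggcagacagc
Aqp2: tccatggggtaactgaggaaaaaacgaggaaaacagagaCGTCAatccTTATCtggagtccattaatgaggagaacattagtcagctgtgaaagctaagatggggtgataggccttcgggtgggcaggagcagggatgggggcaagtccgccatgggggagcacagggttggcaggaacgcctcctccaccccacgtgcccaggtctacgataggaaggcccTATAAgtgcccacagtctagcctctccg
Aqp3: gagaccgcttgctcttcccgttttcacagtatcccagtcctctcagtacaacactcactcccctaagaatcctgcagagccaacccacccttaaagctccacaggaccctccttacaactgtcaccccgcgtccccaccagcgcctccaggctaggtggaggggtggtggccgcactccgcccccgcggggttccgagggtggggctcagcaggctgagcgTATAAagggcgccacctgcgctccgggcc

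The Aqp2 window held each of the 3 motifs, with the CRE half-site on the minus strand 211 bases before the start, the GATA core on the minus strand 202 bases before it and the TATA box 28 bases before it. The Aqp3 window held a TATA box 29 bases before the start. The Aqp1 window held none of these letters. Of 32851 RefSeq windows of the same length, 17.8% held TGACG, 22.6% held GATAA and 22.8% held TATAA on either strand, so a match is common and is only a description. The windows of 7 of the 8 genes were searched, and Aqp4 was left out of the search.

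Aqp1 fell after ischemia in both sets. Its counts in the control kidneys were 3711, 6143, 3923 and 5631, or 178, 159.7, 151 and 147 CPM. In set A they were 808, 770, 773 and 359, or 25.7, 33.0, 17.0 and 21.6 CPM. In set B they were 498, 377, 299 and 359, or 16.8, 23.9, 14.5 and 22.8 CPM. All 8 ischemic kidneys lay far below the lowest control. The mean was 159.1 ± 13.7 CPM in control kidneys, 24.3 ± 6.75 for set A and 19.5 ± 4.57 for set B (SD, n = 4 each). By the quasi-likelihood F-test of edgeR, adjusted by Benjamini-Hochberg over all genes, Aqp1 was 6.54-fold lower in set A (log2 fold change -2.71, SE 0.22, adjusted p = 2.49e-08) and 8.18-fold lower in set B (-3.03, SE 0.23, adjusted p = 7.26e-09). Both sets are measured against the same 4 controls. The exact two-sided permutation test gave p = 0.0286 for each set, the smallest that 4 against 4 kidneys allow, and 0.274 after adjustment over 24 tests. Among all genes tested, 395 for set A and 380 for set B had a lower log2 fold change than Aqp1.

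Aqp1 was the only one of the 8 genes that passed the threshold of 0.05 in set A (22.3% of all genes tested passed, and 11.7% passed as lower) and again in set B (22.8% passed, and 11.9% as lower). The median log2 fold change of the 8 genes was -0.23 for set A and -0.36 for set B, against -0.02 over all genes tested in each. Between set B and set A none of the 8 passed, where 0.00857% of all genes did, a single gene, Slc5a12. In that comparison 587 genes had an unadjusted p under 0.05 in edgeR and none of the 8 was among them. The smallest p of the 8 was that of Aqp1 (log2 fold change -0.32, SE 0.21, adjusted p = 0.999687 by edgeR). DESeq2 called 29 genes and limma-trend 0 between the sets, and neither called any of the 8.

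**Figure D1:**
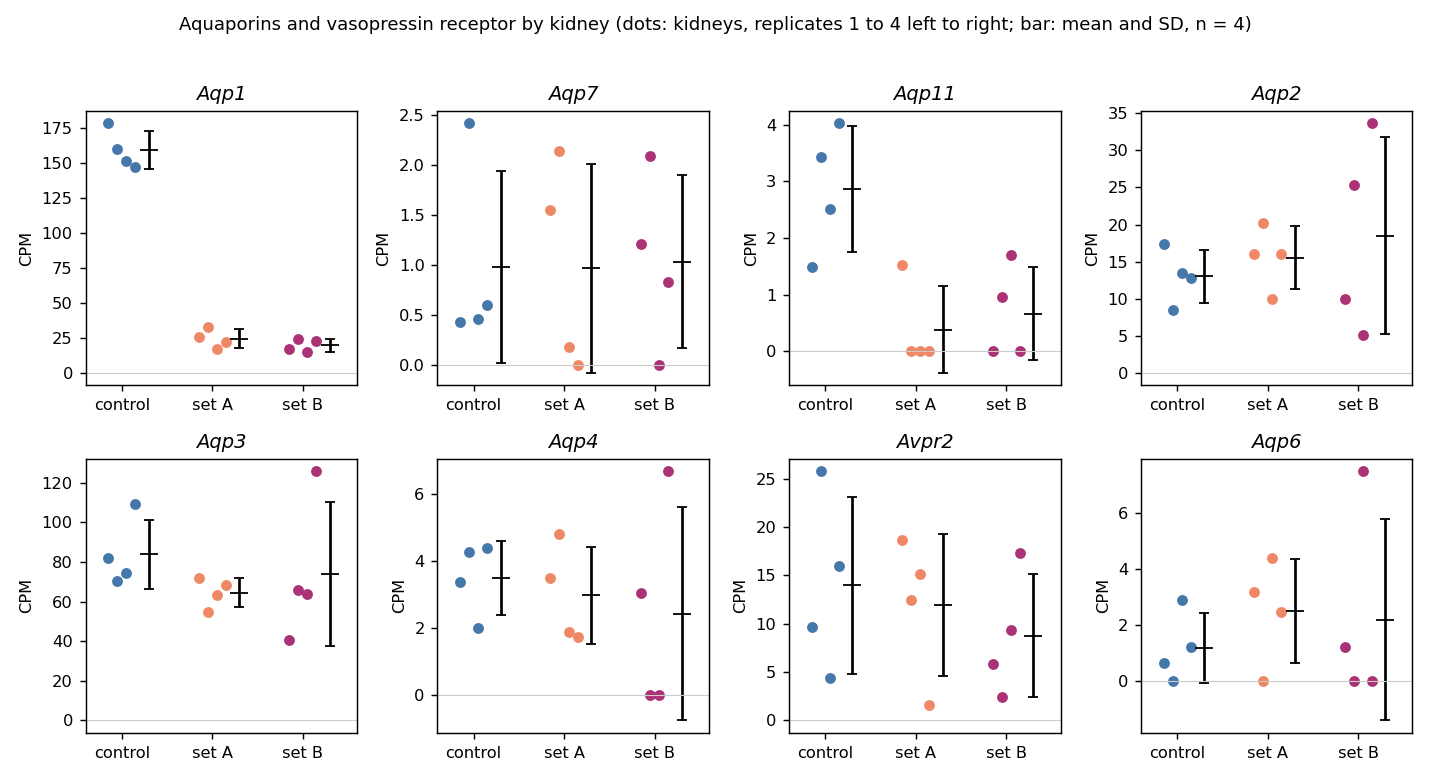
Scaled counts (CPM, linear axis) of the 8 genes in each kidney, with the mean and SD of each group (n = 4) as a black bar. Aqp1 sits between 147 and 178 CPM in control kidneys and between 14.5 and 33.0 CPM in the 8 ischemic kidneys, whereas the groups overlap in every other panel.

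Between the groups, the fall of Aqp1 went with that of the proximal tubule markers. All 8 genes of a list of proximal tubule markers passed as lower in both sets, where 11.7% (set A) and 11.9% (set B) of all genes tested did. Their median log2 fold change was -2.38 for set A and -2.26 for set B. Their summed level lay between 8530 and 9550 CPM in control kidneys, between 1314 and 2190 CPM in set A, and between 712 and 2199 CPM in set B. Slc34a1, the apical phosphate transporter, went from 4921 ± 280.1 to 421 ± 157 and 426 ± 207 CPM (adjusted p = 2.45e-08 and 2.66e-08 by edgeR), and Lrp2, the endocytic receptor megalin, from 765 ± 51.3 to 115 ± 42.1 and 108 ± 60.9 CPM. All 4 markers of the straight segment passed as lower as well, beside the same 11.7% and 11.9% of all genes. Among them was the phospholipid flippase gene Atp11a (571 ± 12.7 to 98.0 ± 25.7 and 124 ± 11.7 CPM). Among the set B kidneys Aqp1 and Slc34a1 did not run together. In replicates 1 to 4 of that set, Slc34a1 was at 685, 323, 488 and 209 CPM and Aqp1 at 16.8, 23.9, 14.5 and 22.8 CPM. In set A, replicate 2 was the highest for both genes. In bulk tissue, fewer cells of a type and less RNA per cell cannot be told apart.

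Set against the mean log2 CPM of the 8 proximal markers in the same kidney, Aqp1 differed less from the controls than its own level did. The difference in log2 was -0.34 for set A and -0.46 for set B, with exact permutation p = 0.0571 and 0.371, both without a call after adjustment over 24 tests (0.457 and 0.686). With 0.0286 as the smallest exact p possible, that adjustment leaves little room for a call. Over the alternatives, which include leaving out a marker or a kidney, the set A value lay between -0.51 and -0.19. The set B value rested on single kidneys, at -0.12 without replicate 1 of that set, -0.29 without replicate 3 and -0.83 without replicate 4. Of the other cells that carry Aqp1, endothelial and erythroid markers are given beside this, and the thin descending limb had no marker list. Of 6 endothelial markers tested, 1 passed (Tek, in set B, where 22.8% of all genes passed), and the median log2 fold change was -0.60 and -0.61 in the sets. The 7 endothelial markers summed to between 143 and 167 CPM in control kidneys, 81.4 to 139 CPM for set A and 62.4 to 124 CPM for set B. Kdr was at 41.0 ± 1.41, 27.4 ± 4.59 and 29.7 ± 6.93 CPM, Ehd3 at 24.8 ± 5.29, 16.2 ± 1.97 and 14.8 ± 8.89 CPM and Cdh5 at 14.2 ± 2.65, 19.0 ± 8.58 and 15.5 ± 5.27 CPM, each without a call, though Kdr was below every control in all 8 ischemic kidneys. Tek, an angiopoietin receptor, passed in set B (25.1 ± 11.5 against 69.8 ± 9.78 CPM) but not in set A (38.8 ± 17.4 CPM, adjusted p = 0.0696 by edgeR), was below every control in all 8 ischemic kidneys, and did not pass between the sets (adjusted p = 0.999687). The 4 erythroid genes found in the table summed to between 56.9 and 123 CPM in control kidneys, 25.5 to 48.5 CPM for set A and 14.7 to 31.7 CPM for set B, with Hba-a1 and Hba-a2 listed at 0 in every kidney. Of the 2 tested, 1 was lower in set A and both were lower in set B, where 11.7% and 11.9% of all genes passed as lower. Beta-s, the beta globin listed as Hbb-bs, fell from 83.8 ± 26.6 to 35.4 ± 9.97 and 21.4 ± 7.24 CPM (log2 fold change -1.24 and -1.97, edgeR adjusted p = 0.00211 and 2.72e-05). Alas2, the heme synthesis enzyme of red cell precursors, was at 2.44 ± 2.08 CPM in control kidneys and 0.219 ± 0.276 CPM in set A, without a call, and at 0 in every kidney of set B, where it passed (adjusted p = 0.0266). The part of these cells in the level of Aqp1 was not tested.

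Aqp11, needed in mice for a proximal tubule free of cysts, was seldom counted after ischemia. The control kidneys held 31, 132, 65 and 154 counts, or 1.49, 3.43, 2.51 and 4.02 CPM. In set A replicate 1 held 48 counts (1.52 CPM) and the other 3 kidneys held 0, among them the most deeply sequenced kidney of the study. In set B replicates 2 and 3 held 15 and 35 counts (0.949 and 1.69 CPM) and the other 2 held 0. In each set, 3 of 4 kidneys lay below every control and the remaining one overlapped them. The means of 2.86 ± 1.11, 0.381 ± 0.762 and 0.660 ± 0.821 CPM differed by log2 fold changes of -2.89 (SE 2.11) for set A and -2.11 (SE 2.05) for set B, which did not pass (edgeR adjusted p = 0.412 and 0.563, exact permutation p = 0.0571 for each). The intervals were wide, from -7.30 to 1.53 and from -6.41 to 2.19. Without replicate 1 of set A, where all remaining set A kidneys were at 0, Aqp11 passed in that set (edgeR adjusted p = 0.0338), and it passed in limma-trend with all kidneys (log2 fold change -4.11).

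Aqp7, an aquaglyceroporin of the straight proximal tubule, did not separate the groups. It had 9, 93, 12 and 23 counts in control kidneys, 49, 50, 8 and 0 in set A, and 36, 33, 0 and 13 in set B. Replicate 2 of the controls was the highest of the 12, and the groups overlapped throughout. The mean was 0.978 ± 0.962 CPM in control kidneys, 0.968 ± 1.05 for set A and 1.03 ± 0.867 for set B, with log2 fold changes of -0.02 (95% interval -3.89 to 3.86) and 0.07 (-3.81 to 3.96). A change of the size seen for Aqp1 lies within these intervals. All 5 markers of fat cells, a main source of Aqp7 outside the kidney, were listed at 0 in every kidney, which cannot be read as absence in this table, and the part of fat cells was not tested.

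Of the principal cell genes, neither the V2 receptor nor any of the 3 aquaporins passed the test. Aqp2, the channel that vasopressin inserts in the apical membrane, had 361, 326, 347 and 489 counts in control kidneys, or 17.3, 8.47, 13.4 and 12.8 CPM. Set A held 16.0, 20.2, 9.91 and 16.0 CPM. Set B held 9.94, 25.4, 5.08 and 33.7 CPM. Set B thus had both the lowest and the highest kidneys of the study, and all groups overlapped. The log2 fold change was 0.26 in set A (SE 0.46, 95% interval -0.70 to 1.22, edgeR adjusted p = 0.806) and 0.51 in set B (SE 0.46, -0.45 to 1.47, adjusted p = 0.526). Without replicate 4 of set B, the kidney with the highest Aqp2, the set B value was 0.05. These intervals lie above the fall of Aqp1 in both sets.

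Aqp3, which lets water and glycerol out across the basolateral membrane, was well covered, with between 1043 and 4174 counts per kidney. The controls held 82.0, 70.4, 74.4 and 109 CPM. Set A held 71.7, 54.5, 63.4 and 68.5 CPM. Set B held 40.5, 65.99, 63.6 and 126 CPM. In set A, 3 of 4 kidneys lay below every control and the difference was still within the error (log2 fold change -0.38, SE 0.26, 95% interval -0.91 to 0.16, edgeR adjusted p = 0.358, exact permutation p = 0.0571). In set B the value was -0.18 (SE 0.26, -0.72 to 0.35, adjusted p = 0.714). Replicate 4 was the highest of all 12 kidneys, and without it the log2 fold change of set B was -0.57 (adjusted p = 0.0555).

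Aqp4, the other basolateral water channel, at chr18:15389496-15410982, was low, and its reading is further limited by the antisense gene that it overlaps. It had 70, 164, 52 and 168 counts in control kidneys, 110, 112, 85 and 29 in set A, and 90, 0, 0 and 105 in set B. Replicates 2 and 3 of set B were at 0, and the other 2 kidneys of that set reached the control range or above. The mean was 3.50 ± 1.10 CPM in control kidneys, 2.98 ± 1.45 for set A and 2.42 ± 3.17 for set B, with log2 fold changes of -0.24 (SE 1.28) and -0.53 (SE 1.28) and adjusted p-values of 0.948 and 0.859 by edgeR. The set B value was -1.77 without replicate 4 of that set, and -0.14 without its replicate 2 or without its replicate 3. With limma-trend the set B value was -2.55 (adjusted p = 0.155). The set A value was -0.56 without replicate 2 of that set and -0.058 without its replicate 3.

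Avpr2, the receptor at the head of the pathway, varied widely within each group. It had 202, 992, 115 and 612 counts in control kidneys, or 9.69, 25.8, 4.44 and 16.0 CPM. Set A held 588, 292, 687 and 27 counts, or 18.7, 12.5, 15.1 and 1.63 CPM. Set B held 173, 39, 194 and 273 counts, or 5.83, 2.47, 9.38 and 17.3 CPM. The lowest and the highest kidney of each group lay far apart and the groups overlapped. The log2 fold change was -0.22 in set A (SE 0.65, 95% interval -1.58 to 1.13, edgeR adjusted p = 0.892) and -0.68 in set B (SE 0.65, -2.04 to 0.69, adjusted p = 0.557). The set B value was -0.22 without replicate 2 of the controls, -0.39 without replicate 2 of set B and -1.25 without replicate 4 of set B, with no call. Of its overlapping neighbours, Arhgap4 had at most 44 counts and L1cam had 614 to 2483 counts.

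**Figure D2:**
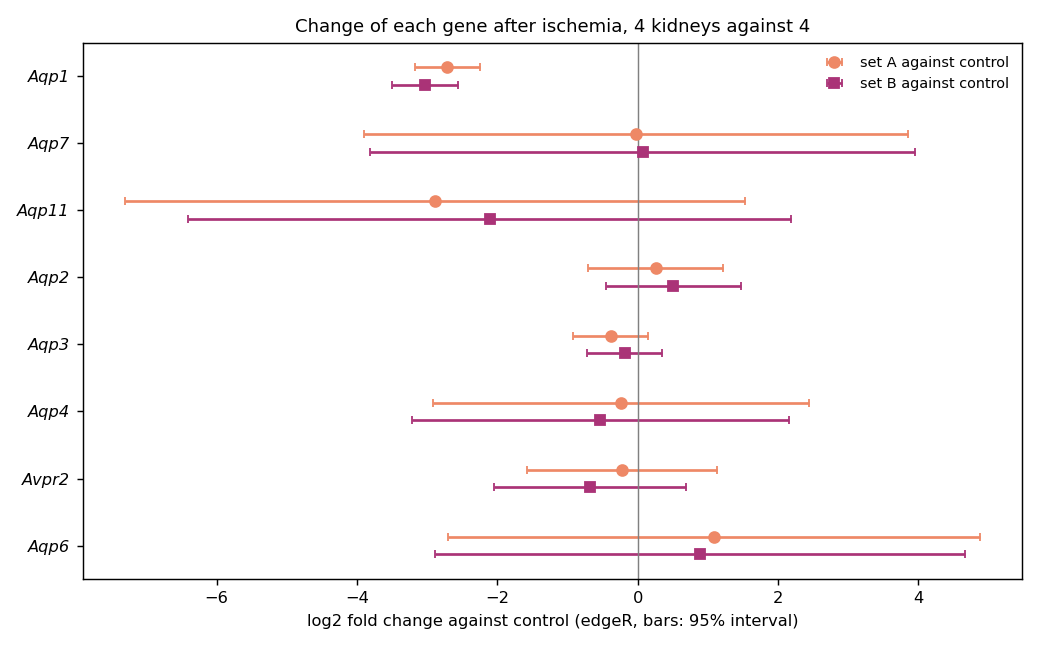
Log2 fold change of each gene in ischemia set A (circles) and set B (squares) against the 4 controls, with 95% intervals from the edgeR fit. The intervals of Aqp1 lie wholly below 0, those of Aqp2 and Aqp3 include 0, and those of Aqp4, Aqp6, Aqp7 and Aqp11 span several log2 units.

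Aqp6, the channel of intercalated cell vesicles, was read in most kidneys only at low counts. It had 13, 0, 75 and 46 counts in control kidneys, 100, 0, 200 and 41 in set A, and 36, 0, 155 and 0 in set B. Replicate 3 of set B was the highest at 7.496 CPM, and every group had a kidney at 0. The log2 fold change was 1.09 in set A (SE 1.81) and 0.88 in set B (SE 1.80), with edgeR adjusted p-values of 0.788 and 0.824. Without replicate 3 of the controls these were 2.03 and 1.81, and without replicate 3 of set B the set B value was -1.52. Over Aqp4, Aqp6, Aqp7 and Aqp11 together, 13 of 48 values were 0 and the smallest value above 0 was 8 counts.

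The marker lists of the collecting duct cells are short, and with 22.3% and 22.8% of all genes passing, their counts of calls say little. None of the 6 principal cell markers tested passed in either set, with medians of -0.01 and 0.42, and their sum was 140 to 213 CPM in control kidneys, 147 to 181 CPM (set A) and 144 to 299 CPM (set B), with Fxyd4 at or near 0. Of the 7 intercalated cell markers Slc4a1 alone passed and fell from 34.6 ± 7.17 to 7.86 ± 2.87 and 4.399 ± 1.70 CPM, a gene for the anion exchanger of these cells that red cells share. The list median was 0.12 and 0.43, the sum was 200 to 334 CPM among controls, 158 to 339 CPM (set A) and 182 to 508 CPM (set B), and Foxi1, a transcription factor of these cells, was at 138, 161 and 222 CPM without a call. Relative to the principal cell markers of the same kidney, the log2 level of Aqp3 differed from the controls by -0.34 for set A and by -0.83 for set B, for which the exact permutation p was 0.0286 and, after adjustment over 24 tests, 0.457. The same difference was 0.28 and -0.36 for Aqp2, -0.26 and -3.11 for Aqp4, and -0.37 and -1.28 for Avpr2. The marker mean takes in Fxyd4, at 0 in every control and set A kidney, and Elf5, at 0.351, 0.821 and 1.41 CPM. The log2 values of such low genes rest largely on the prior count. Over the alternatives, which include leaving out a marker, the set B value of Aqp3 lay between -1.085 and -0.608. No comparison of any of the 8 genes with its markers passed after adjustment. With 4 kidneys against 4 the smallest exact permutation p is 0.0286, so a call over 24 tests was hardly possible and its lack says little.

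**Figure D3:**
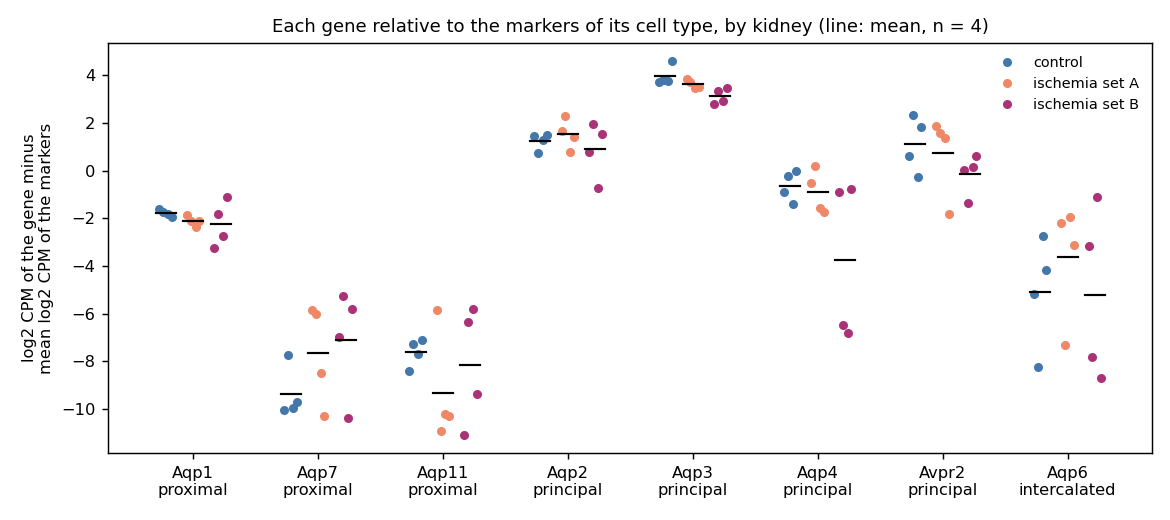
Log2 CPM of each gene minus the mean log2 CPM of the markers of its cell type (named under each gene) in the same kidney, with the mean of each group (n = 4) as a line. Aqp1 lies between -1.95 and -1.59 in control kidneys and between -3.25 and -1.12 in the ischemic kidneys, and the groups overlap for every gene except Aqp3 in set B.

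The make-up of the aquaporin transcripts differed between control and ischemic kidneys. Levels were set side by side per length, as counts per kilobase of transcript scaled to a sum of 1000000 in each kidney (TPM). In the controls Aqp1 came first at 183 TPM and Aqp3 next at 143 TPM, with overlapping ranges, followed at a distance by Aqp2 at 27.7 TPM and Avpr2 at 15.02 TPM, whose ranges overlap. Aqp11, Aqp4, Aqp6 and Aqp7 lay between 1.15 and 2.29 TPM, each overlapping the next. In both ischemic sets the order was Aqp3, Aqp2, Aqp1 and Avpr2, and Aqp11 came last. Aqp3 stood clear of Aqp2 in set A (110.2 against 32.9 TPM), while their ranges overlapped in set B (128 against 39.9 TPM). From Aqp2 on, each gene overlapped the next in both sets, so that part of the order is not resolved.

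Aqp1 made up 50.8 ± 5.34% of the aquaporin TPM in control kidneys, 15.6 ± 3.82% for set A and 12.5 ± 3.67% for set B. The share of Aqp3 was 39.5 ± 5.47%, 62.1 ± 7.30% and 64.6 ± 7.24%, and that of Aqp2 was 7.60 ± 1.77%, 18.4 ± 4.34% and 18.9 ± 8.55%. These shares sum to a fixed total, so that a lower share of Aqp1 raises the others. The total itself was 361 ± 39.8 TPM in control kidneys, 178 ± 16.0 for set A and 197 ± 95.7 for set B. The ratio of Aqp1 to Aqp3, the proximal against the collecting duct channel, was 0.906 to 1.52 in control kidneys, 0.180 to 0.406 for set A and 0.122 to 0.278 for set B, so the ranges of both sets lay below that of the controls.

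**Figure D4:**
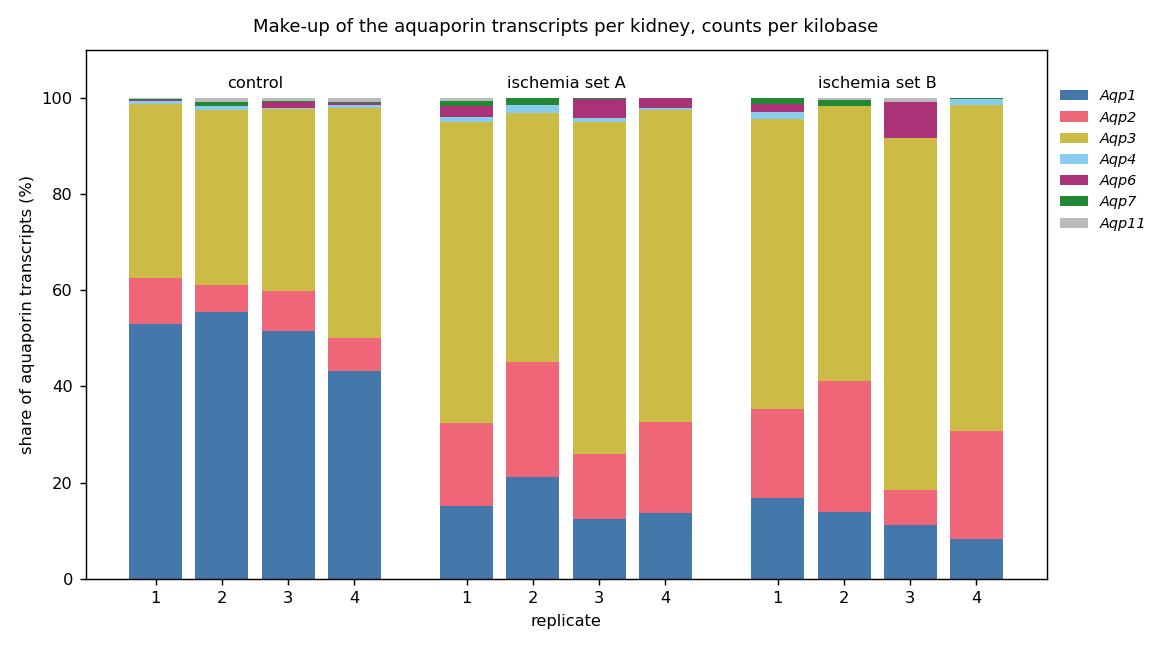
Share of each aquaporin in the aquaporin transcripts of each kidney (%, from counts per kilobase). Aqp1 takes 43.2 to 55.6% in the 4 controls and 8.24 to 21.1% in the 8 ischemic kidneys, where Aqp3 takes 51.9 to 73.2%.

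The other aquaporins in the table, Mip, Aqp5, Aqp8, Aqp9 and Aqp12, were listed at 0 in all 12 kidneys. Of the other vasopressin receptors, Avpr1b was at 0 throughout, and Avpr1a, the V1a receptor, had at most 64 counts in a kidney, without a call in either set.

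Calls among the genes of vasopressin signalling, a list that also holds other receptors such as Casr and Ptger3, were near the share over all genes. Of 32 such genes tested, 3 were higher and 2 lower in set A (22.3% of all genes passed), and 3 were higher and 3 lower in set B (22.8% of all genes), with median log2 fold changes of 0.01 and -0.09 beside -0.02 over all genes. Gnas, the stimulatory G protein that Avpr2 couples to, was at 4271, 4136 and 4011 CPM in control kidneys, set A and set B, and Adcy6, an adenylyl cyclase that makes cyclic AMP in the collecting duct, was at 164, 152 and 143 CPM, both without a call. Of 6 phosphodiesterases, which break cyclic AMP down, 1 rose and 1 fell in both sets, and Pde3a, Pde4a, Pde4b and Pde4d did not pass in either. Pde3b rose from 8.95 ± 2.04 to 33.2 ± 7.36 and 41.0 ± 16.2 CPM (edgeR adjusted p = 9.40e-05 and 1.96e-05), while Pde4c fell from 60.8 ± 9.90 to 13.1 ± 4.25 and 15.1 ± 11.8 CPM (adjusted p = 2.16e-04 and 5.37e-04). Crem, a cyclic AMP response modulator, rose from 14.4 ± 3.40 to 29.7 ± 6.75 and 26.8 ± 6.20 CPM. Casr, the calcium-sensing receptor, which the thick ascending limb expresses too, fell from 611 ± 37.4 to 228 ± 29.7 and 291 ± 179 CPM.

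Calls among the genes for Aqp2 trafficking went in both directions. Of 38, 11 were higher and 7 lower in set A, and 12 were higher and 4 lower in set B, with medians of 0.16 and 0.26, where 22.3% and 22.8% of all genes passed. No test of the list was made. These genes serve vesicles and actin in many cell types, and the values are those of kidney tissue as a whole. Ezr, which links actin to the membrane, rose from 664 ± 49.3 to 1424 ± 197 and 1463 ± 196 CPM. Myo1c, a myosin motor, rose from 91.2 ± 12.9 to 204 ± 24.2 and 228 ± 24.1 CPM, and Arhgdia, a regulator of the actin cytoskeleton, from 126 ± 18.9 to 278 ± 18.8 and 314 ± 12.7 CPM. Dynll2, a dynein light chain, fell from 409 ± 46.9 to 150 ± 37.7 and 168 ± 35.6 CPM.

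The concentrating work of vasopressin also needs salt, urea and osmolytes in the medulla. Of 12 such genes tested, 1 was higher and 2 lower in set A, and 2 were higher and 2 lower in set B, with medians of 0.11 and 0.50. These counts are near the 22.3% and 22.8% of all genes that passed. Slc12a1, the sodium, potassium and chloride cotransporter of the thick ascending limb, fell from 1512 ± 42.3 to 180 ± 16.5 and 256 ± 184 CPM (edgeR adjusted p = 3.09e-07 and 2.61e-06). Slc6a6, the taurine transporter, fell from 1226 ± 45.1 to 532 ± 54.4 and 578 ± 168 CPM, while Slc5a3, the myo-inositol transporter, rose from 265 ± 31.5 to 410 ± 54.3 and 416 ± 180 CPM. Nfat5, the tonicity response factor, passed in set B (716 ± 48.9 against 494 ± 45.3 CPM, log2 fold change 0.54, adjusted p = 0.00129) and not in set A (597 ± 56.2 CPM, log2 fold change 0.27, adjusted p = 0.0920), and it did not pass between the sets. Of 5 inner medulla markers tested, which share genes with that list, 2 were higher and 1 lower in both sets, with medians of 0.45 and 0.65, and Ptgs1 and Slc14a2 did not pass. Among them Cryab, a small heat shock protein, rose from 196 ± 38.9 to 1141 ± 138 and 1135 ± 434 CPM.

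Over the 12 kidneys, the profiles of the genes other than Aqp6 were set against those of 9350 other genes. These had an overall abundance in the edgeR fit of at least 1 log2 CPM, which is not the mean of the kidneys' log2 values. The measure was the root mean square difference of centred log2 CPM. For Aqp1 the nearest were Mgam (0.29), a brush border maltase, and Aldh6a1 (0.32), a mitochondrial dehydrogenase. For Aqp3 they were Stim1 (0.20) and Hdac11 (0.21), and for Aqp2 Slx4 (0.38) and Kbtbd8 (0.41). For Avpr2 they were Hist2h3b (0.56) and Cdkn1c (0.60). The nearest genes of Aqp4 (Hs1bp3 and Fam188b), Aqp7 (Rfxap and Cnnm1) and Aqp11 (5033411D12Rik and Tmco3) lay between 0.66 and 1.10. A distance has to be read beside the SD of the gene's own centred profile. That SD was 0.41 for Aqp3, 0.70 for Aqp2, 1.17 for Avpr2 and 1.40 for Aqp1. It was 1.70 for Aqp7, 2.12 for Aqp4 and 2.42 for Aqp11. Hs1bp3 and Fam188b, as Aqp4, were at 0 in replicates 2 and 3 of set B. These distances describe 12 points that share groups and depth, and they say nothing of shared control.

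Among the principal cell markers, Hsd11b2, the enzyme that shields the mineralocorticoid receptor from glucocorticoids, lay nearest to Avpr2, at 0.73 and rank 13 of 9350, and was singled out after its values were seen. The other 4 in the comparison lay further off, Gata3 at rank 223, Npnt at 451, Scnn1b at 4986 and Scnn1g at 6529. The levels of Hsd11b2 were 10.4, 30.9, 8.53 and 16.3 CPM in control kidneys, 25.8, 10.9, 16.7 and 2.65 CPM in set A, and 5.32, 8.41, 11.6 and 6.16 CPM in set B. Replicate 2 of the controls was the highest kidney for both Hsd11b2 and Avpr2, and replicate 4 of set A the lowest for both. Against Aqp2, Hsd11b2 ranked 7196.

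The sum of the injury markers also separated control from ischemic kidneys. Havcr1 (KIM-1), Lcn2 and Krt20, genes that damaged tubules switch on, summed with Vcam1 to between 0.650 and 3.74 CPM in control kidneys, 53.8 to 99.7 CPM for set A and 39.3 to 97.4 CPM for set B. Of these 4, 3 passed as higher in both sets, where 22.3% and 22.8% of all genes passed in either direction. Vcam1 did not pass (edgeR adjusted p = 0.0719 and 0.0720) and overlapped the controls in set B. The 7 leukocyte genes summed to between 43.2 and 66.5 CPM in control kidneys, 12.2 to 29.9 CPM for set A and 6.16 to 34.5 CPM for set B, and nearly all of the control sum was Csf1r, the macrophage growth factor receptor, which fell from 52.1 ± 9.05 to 13.5 ± 5.25 and 10.5 ± 6.53 CPM. It was the only one of the 4 tested that passed, about the share of all genes (22.3% and 22.8%), and the median log2 fold change of the list was 0.87 for set A and -0.42 for set B. Ptprc, the pan-leukocyte antigen CD45, was at 2.96 ± 2.21, 3.84 ± 2.71 and 4.39 ± 4.94 CPM, without a call. Urothelial genes summed to at most 5.48 CPM in any kidney.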

How the data were processed

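RNA from 12 mouse kidneys (4 control, 4 in ischemia set A and 4 in set B) was sequenced by the authors from stranded mRNA libraries as single reads of 100 bases. Reads were mapped to mm10 with STAR and counted per gene with HTSeq. The versions, the annotation and the strand setting are not given in the sources used here. The authors deposited raw, unnormalized counts per gene.

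Testing was done in edgeR 4.0.16 (R 4.3.3), after the filter on low counts (minimum count 10, minimum total 15) and TMM scaling. A single 3-group model held all 12 kidneys, and each comparison was tested with a two-sided quasi-likelihood F-test, adjusted by Benjamini-Hochberg over 11664 genes with a threshold of 0.05. Log2 CPM used a prior count of 2. The procedure was also run on simulated counts, and the outcome is not given here. TPM used GENCODE M21 transcript lengths, which 95.7% of the counts had. Levels, and log2 CPM minus the mean of the marker list, were compared with exact two-sided permutation tests. Python 3.11.15, SciPy 1.17.1 and matplotlib 3.10.9 were used.

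The genes and the lists were chosen with earlier results of these data known. From each list, at most 4 genes that passed without overlap of the kidneys are named, by mean absolute log2 fold change, plus single genes a value is compared with and the 2 nearest profiles of each gene (those of Aqp6 are not reported here). The replicate numbers of the labels did not pair the kidneys. The alternatives were DESeq2 1.42.0, limma-trend (limma 3.58.1), relative log expression (RLE) size factors, total counts, other filters, a fit of 2 groups, the replicate number as a block, marker lists short of a gene, and leaving out each kidney. Hbb-bs was found under the symbol Beta-s and Adgre1 under Emr1. Hbb-bt was not used.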

Additional observations from a re-analysis of the deposited data

Results flagged for a closer look

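In 3 of the 24 groups of 4 kidneys (8 genes in 3 groups), a kidney lay far from the rest, with a gap to the nearest value that took up most of the range of the group. Chance flags about 1 in 20 groups of normally distributed values, a rate that cannot be set against these low counts with many values at 0, and a group with 3 of 4 kidneys at 0 meets the criterion by construction. Replicate 3 of set B had 7.496 CPM of Aqp6, and the nearest kidney had 1.21 CPM. Replicate 2 of the controls had 2.42 CPM of Aqp7, and the nearest had 0.601 CPM. Replicate 1 of set A had 1.52 CPM of Aqp11, and the other 3 kidneys were at 0. All 3 genes are among those with few counts.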

How the results depend on the processing

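Aqp1 was called lower in both sets under every alternative, with log2 fold changes from -2.89 to -2.56 in set A and from -3.17 to -2.93 in set B. Of the 8 genes, 1 was called in set A in the main analysis, 2 under limma-trend, and between 1 and 2 when a kidney was left out (2, with Aqp11, without replicate 1 of set A). Between the sets, the 1 gene called became 29 with DESeq2, 6 without the filter, 0 with only the 2 groups compared (where 7 of the 8 genes could be tested), 0 with limma-trend and between 0 and 7 when a kidney was left out, the 7 being without replicate 4 of set B and 3 without replicate 2 of set B. The replicate block called 2491, 2531 and 1 genes in set A, set B and set B against set A, and 1, 1 and 0 of the 8. Same-numbered kidneys did not deviate together (correlations from -0.055 to 0.045, 1 of 12 highest for its own number), so the numbers are not taken as pairs. Alternatives were read gene by gene for the 8 genes only. Among these, no call other than that of Aqp11 changed, but signs and sizes of log2 fold changes without a call did. Aqp7 in set A became 0.016 with DESeq2, 0.016 with RLE size factors, 0.021 with total counts, 0.013 with the 1 CPM filter and 0.012 with only the 2 groups. In set B it became -0.40 with the replicate block and -0.32 with limma-trend, which also gave -0.47 for Aqp6 in set B and -0.060 for Aqp2 between the sets. When a kidney was left out, the range crossed 0 for Aqp3 (-0.57 to 0.00025), Aqp6 (-1.52 to 1.81) and Aqp7 (-0.55 to 1.03) in set B, for Aqp7 (-0.76 to 0.96) and Avpr2 (-0.53 to 0.26) in set A, and between the sets for Aqp2 (-0.21 to 0.56), Aqp3 (-0.19 to 0.40), Aqp4 (-1.54 to 0.12), Aqp6 (-2.60 to 0.21), Aqp7 (-0.51 to 0.83) and Aqp11 (-0.29 to 7.14). Relative to the markers it crossed 0 for Avpr2 (-0.84 to 0.49) and Aqp4 (-0.63 to 0.012) in set A, for Aqp2 (-0.71 to 0.18), Aqp6 (-1.48 to 1.05) and Aqp11 (-1.32 to 0.45) in set B, and between the sets for Aqp1 (-0.49 to 0.22) and Aqp7 (-0.32 to 1.64). Aqp6 in set B also turned when the intercalated list lost Atp6v1g3 (0.063), Slc4a9 (0.034) or Foxi1 (0.045). Without turning, limma-trend gave -2.55 for Aqp4, 0.20 for Aqp2 and -0.28 for Aqp3 in set B, -0.69 for Aqp7 and -0.40 for Avpr2 in set A, and -2.26 for Aqp4, -1.42 for Aqp6, 0.37 for Aqp7 and 0.083 for Aqp3 between the sets. The replicate block gave -1.49 for Aqp4, 0.23 for Aqp2 and 0.056 for Aqp6 in set B, -6.10 for Aqp11, -0.66 for Aqp7, 0.15 for Aqp2, -0.11 for Avpr2 and -0.082 for Aqp4 in set A, and -1.40 for Aqp4, -1.19 for Aqp6, 0.27 for Aqp7, 3.54 for Aqp11, 0.10 for Aqp3 and 0.087 for Aqp2 between the sets. With a prior count of 0.5, the values relative to the markers were -3.18 (set A) and -1.53 (set B) for Aqp11, -0.58 for Aqp6 and -0.56 for Aqp2 in set B. Without crossing 0, leaving out a kidney gave -0.56 to -0.058 for Aqp4, 0.68 to 2.03 for Aqp6, -9.23 to -2.45 for Aqp11, 0.10 to 0.44 for Aqp2 and -0.45 to -0.22 for Aqp3 in set A, and -1.77 to -0.14 for Aqp4, -3.19 to -1.70 for Aqp11, 0.048 to 0.80 for Aqp2 and -1.25 to -0.22 for Avpr2 in set B. Between the sets it gave -0.48 to -0.14 for Aqp1 and -1.02 to -0.15 for Avpr2. The -9.23 is against kidneys all at 0 and depends on the prior count. Relative to the markers it gave -0.83 to -0.12 for Aqp1, -0.94 to -0.63 for Aqp3, -4.10 to -2.08 for Aqp4 and -1.75 to -0.87 for Avpr2 and 1.66 to 3.36 for Aqp7 in set B, and 0.038 to 0.54 for Aqp2, -0.42 to -0.13 for Aqp3, 0.39 to 2.67 for Aqp6, 1.11 to 2.59 for Aqp7 and -2.85 to -1.16 for Aqp11 in set A. The causes were not tested. Counts of 0 to 200 limit the precision for Aqp4, Aqp6, Aqp7 and Aqp11.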
